A study of Mus musculus with 21 samples.

Results

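Initiator methionine tRNA is the tRNA that places the first amino acid of nearly every protein made in the cytosol. Its rows in the deposited count tables were found by name, as all rows that begin with iMet-CAT. The rule gave 3 rows, iMet-CAT-1 with its sisters iMet-CAT-2-1 and iMet-CAT-3-1, out of 213 tRNA rows in either table. All 3 stand in both tables, which list 208 tRNAs for cerebellum and 209 for cerebrum, and all 3 passed the filter on low counts in every comparison. Each row is an isodecoder, a tRNA body sequence that shares its anticodon with sister sequences. The sources used here do not say how reads that match several near-identical isodecoders were assigned, so the split of counts between the 3 rows is uncertain.

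The libraries came from C57BL/6J mice of 2 genotypes, labelled Polr3a mutant and wildtype, and from 2 brain tissues. All mice, the wildtype ones included, were labelled with tamoxifen treatment. Tamoxifen was used to induce recombination on postnatal day 28 and the tissue was frozen on day 42. There were 5 mutant and 6 wildtype libraries of cerebellum, and 4 mutant and 6 wildtype libraries of cerebrum. The labels give neither the mutant allele nor the promoter behind the recombinase, so the cells in which recombination took place are unknown here. Every group held libraries of both sexes. The labels leave unstated whether each library had its own animal, so the p-values speak of the spread among these libraries alone. A tRNA library holds no messenger RNA, so neither the mutation nor the tissue label could be checked against marker genes.

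Nuclear tRNA genes are transcribed by RNA polymerase III, whose catalytic subunit is the product of Polr3a. Cells keep separate methionine tRNAs with the same CAT anticodon: the initiator binds initiation factor 2 and enters the ribosome at the start codon, while elongator methionine tRNAs read methionine codons inside the message. Mitochondria use a methionine tRNA of their own for both tasks, transcribed from mitochondrial DNA by another polymerase. In bulk tissue, fewer cells of a type and less of a tRNA in each cell cannot be told apart.

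The mitochondrial methionine tRNA, listed as Met-CAT-MT, is used below as a comparison that RNA polymerase III does not make. Its gene, mt-Tm, lies at chrM:3845-3913 on the plus strand of GRCm38 (mm10), and the capitals mark the anticodon at bases 31 to 33 of 69.
Met-CAT-MT: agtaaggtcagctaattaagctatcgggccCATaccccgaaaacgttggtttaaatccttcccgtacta

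Apart from the spike-in row, mutant cerebellum libraries held 2146717 to 7110313 counts and wildtype cerebellum libraries 1612754 to 5323340. Mutant cerebrum libraries held 4830413 to 7588902 counts and wildtype cerebrum libraries 4353056 to 6171896. In cerebellum, depth went almost with genotype. Mutants 2, 3, 4 and 5 and wildtype 5 had at least 4831721 counts, and mutant 1 and the other 5 wildtype libraries at most 2272675. The mitochondrial share of counts was 17.2% ± 3.0 in mutant and 13.4% ± 0.700 in wildtype cerebellum (SD, n = 5 and 6). It was 14.3% ± 1.19 in mutant and 11.2% ± 0.445 in wildtype cerebrum (SD, n = 4 and 6).

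Nearly all initiator counts fell in a single row. iMet-CAT-1 had 21219 to 146864 raw counts per library, iMet-CAT-2-1 had 53 to 781 and iMet-CAT-3-1 had 181 to 1900. These are read counts that were not divided by length. Ranked by mean share of the nuclear tRNA counts, iMet-CAT-1 stood at place 17 in mutant and 13 in wildtype cerebellum, of 186 rows. It stood at place 12 in mutant and 14 in wildtype cerebrum, of 187 rows. The less abundant rows stood between places 98 and 143 in the same rankings. Summed to its anticodon, the initiator took 1.73% ± 0.496 of nuclear tRNA counts in mutant and 2.02% ± 0.479 in wildtype cerebellum. It took 2.12% ± 0.259 in mutant and 1.86% ± 0.260 in wildtype cerebrum (SD, n = 5, 6, 4 and 6).

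Set on a common scale over all 21 libraries, the 3 rows had the same highest group but differed in how far cerebellum lay below cerebrum. CPM here means the count scaled to a common library size after TMM scaling, which assumes that most tRNAs do not differ between libraries. That assumption is in doubt between tissues, where 71.1% of 204 tRNAs passed in wildtype and 72.5% in mutants. iMet-CAT-1 averaged 13222 ± 3659 CPM in mutant cerebellum, 15301 ± 4015 in wildtype cerebellum, 20683 ± 1134 in mutant cerebrum and 17486 ± 2631 in wildtype cerebrum (SD, n = 5, 6, 4 and 6). From high to low the order was mutant cerebrum, wildtype cerebrum, wildtype cerebellum and mutant cerebellum, and no pair of neighbours in that order passed a test between them. iMet-CAT-2-1 averaged 34.5 ± 15.0 CPM in mutant and 37.5 ± 11.7 in wildtype cerebellum, against 132 ± 2.68 in mutant and 113 ± 14.8 in wildtype cerebrum. iMet-CAT-3-1 averaged 136 ± 66.0 CPM in mutant and 145 ± 60.8 in wildtype cerebellum, against 336 ± 20.6 in mutant and 280 ± 50.5 in wildtype cerebrum. Both less abundant rows had the same group order as iMet-CAT-1, and for them only the step between the tissues passed a test.

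**Figure D1:**
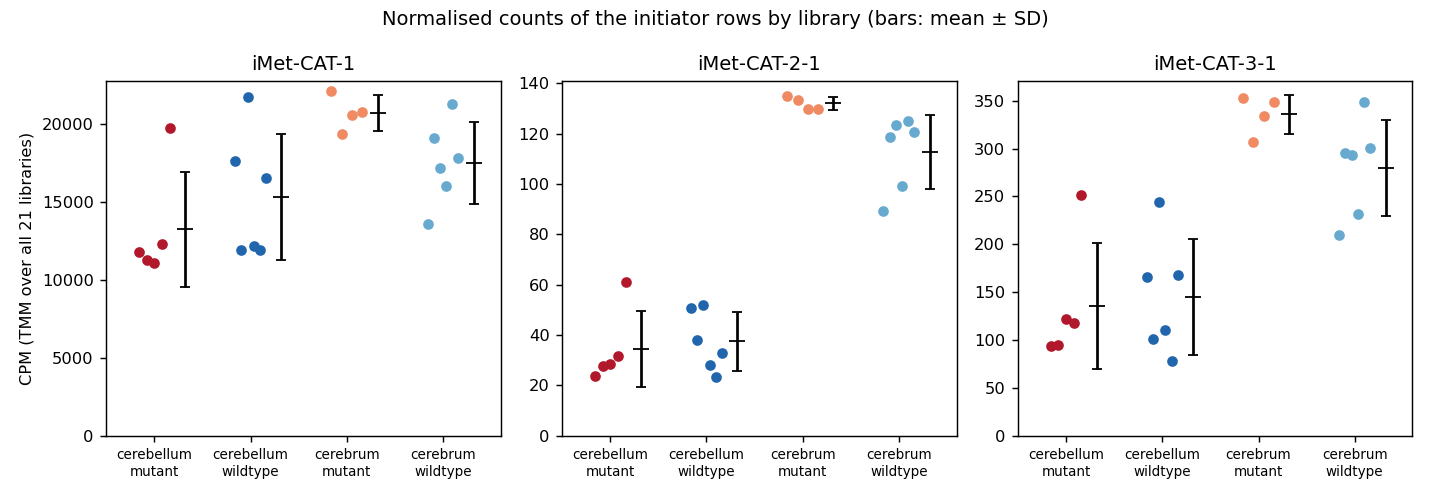
Normalised count in CPM (vertical axis from 0, TMM over all libraries) of each initiator row in every library, by tissue and genotype; points are libraries and bars are the mean ± SD. For iMet-CAT-2-1 every cerebellum library lies below every cerebrum library, while for iMet-CAT-1 and iMet-CAT-3-1 the tissues overlap. iMet-CAT-3-1 reaches 252 CPM in mutant cerebellum, and its lowest wildtype cerebrum value is 210 CPM. The highest mutant cerebellum point in each panel is mutant 5.

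The initiator family differed between tissues in its make-up. Tissue differences in level were common among tRNAs, with 71.1% of 204 passing between the wildtype tissues by edgeR. The make-up of other families was not examined. Both less abundant isodecoders held a smaller part of the initiator counts in cerebellum than in cerebrum, in either genotype. iMet-CAT-2-1 made up 0.195% to 0.317% of the family in wildtype cerebellum (median 0.232%), against 0.576% to 0.701% (median 0.627%) in wildtype cerebrum. In mutants it made up 0.200%, 0.244%, 0.253%, 0.256% and 0.304% in cerebellum, against 0.598%, 0.675%, 0.619% and 0.611% in cerebrum. No cerebellum library reached the lowest cerebrum library.

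iMet-CAT-3-1 showed the same order. It made up 0.647% to 1.11% of the family (median 0.917%) in wildtype cerebellum, against 1.42% to 1.67% (median 1.56%) in wildtype cerebrum. In mutants its share was 0.786%, 0.829%, 1.09%, 0.947% and 1.26% in cerebellum, against 1.56%, 1.55%, 1.59% and 1.64% in cerebrum. Again the tissues did not overlap, and mutant 5 was the nearest cerebellum library.

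In wildtype libraries the share of iMet-CAT-2-1 was lower in cerebellum than in cerebrum by 0.390 percentage points ± 0.0269 (SE; 0.243% against 0.633%; exact two-sided permutation p = 0.00216, adjusted p = 0.00866). The share of iMet-CAT-3-1 was lower by 0.654 points ± 0.0751 (0.907% against 1.56%), with the same exact permutation p and adjusted p. That p is the smallest that 924 splits of 6 against 6 libraries can give, and the adjustment runs over 12 share comparisons, 4 for each row. iMet-CAT-1 made up the difference, with 98.9% ± 0.168 in wildtype cerebellum and 97.8% ± 0.124 in wildtype cerebrum (SD, n = 6 each). In mutants the shares of iMet-CAT-2-1 were 0.251% ± 0.0371 in cerebellum and 0.626% ± 0.0337 in cerebrum, and those of iMet-CAT-3-1 were 0.981% ± 0.193 in cerebellum and 1.59% ± 0.0403 in cerebrum (SD, n = 5 and 4). Each mutant comparison had an exact permutation p of 0.0159, the smallest that 126 splits allow, and an adjusted p of 0.0317.

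A share within the family does not depend on how libraries are scaled to each other. It does depend on read assignment. The count ratio of iMet-CAT-2-1 to iMet-CAT-3-1 also differed between tissues, at 0.259 ± 0.0243 in mutant and 0.274 ± 0.0668 in wildtype cerebellum, against 0.395 ± 0.0273 in mutant and 0.406 ± 0.0259 in wildtype cerebrum (SD; described only, with no test). The highest wildtype cerebellum ratio, 0.376 in wildtype 2, lay within the cerebrum range of 0.359 to 0.434. The tissue difference was also present at like depth: the 5 cerebellum libraries with at least 4831721 counts had iMet-CAT-2-1 shares of 0.195% to 0.304% and iMet-CAT-3-1 shares of 0.647% to 1.26%, below every cerebrum library.

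**Figure D2:**
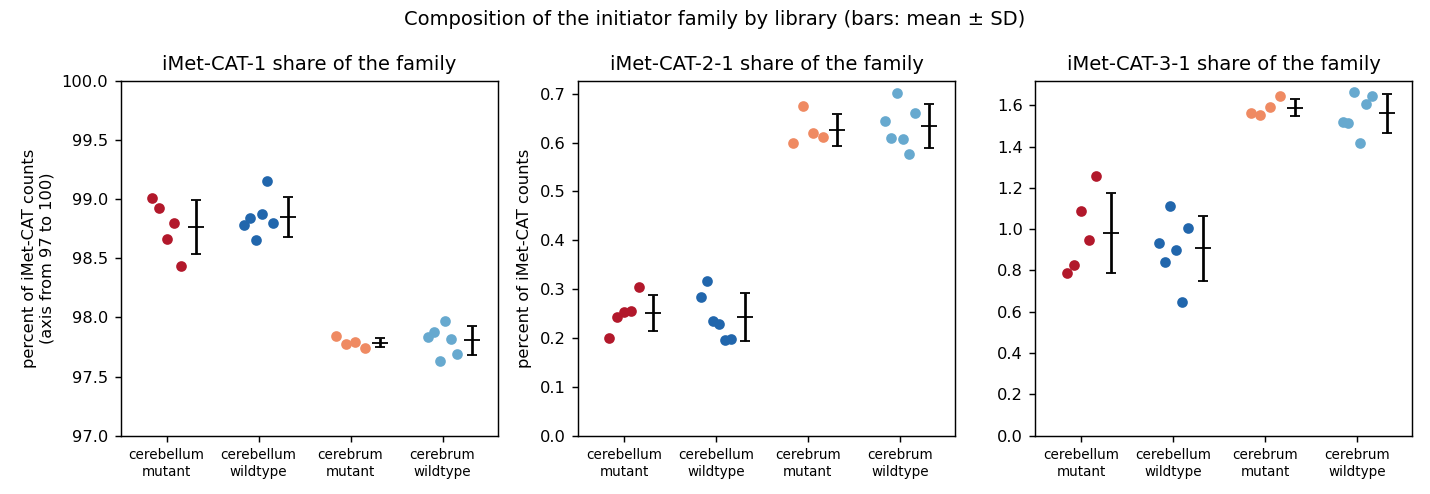
Share of each isodecoder in the summed iMet-CAT counts of a library (percent; the axis for iMet-CAT-1 does not start at 0, the others do), by tissue and genotype; points are libraries and bars are the mean ± SD. Cerebellum and cerebrum do not overlap in any panel, while mutant and wildtype libraries of the same tissue do.

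Between genotypes the make-up of the family did not differ beyond the spread of the libraries. The mutant minus wildtype difference was 0.00857 points ± 0.0258 for iMet-CAT-2-1 and 0.0744 points ± 0.108 for iMet-CAT-3-1 in cerebellum (SE; exact permutation p = 0.74 and 0.506). In cerebrum it was −0.00762 points ± 0.0248 and 0.0264 points ± 0.0436 (exact permutation p = 0.81 and 0.638). None of the 6 genotype comparisons of shares passed.

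In levels, wildtype cerebellum had less of the 2 scarce isodecoders than wildtype cerebrum with TMM scaling, and the main one did not pass. iMet-CAT-2-1 was lower with a log2 fold change, cerebellum over cerebrum, of −1.60 ± 0.21 (SE; edgeR adjusted p = 1.78e-07). iMet-CAT-3-1 was lower by −0.95 ± 0.23 (edgeR adjusted p = 0.000602). iMet-CAT-1, which carries almost all of the family, differed by −0.19 ± 0.15 (edgeR adjusted p = 0.257); it was 0.095 with library totals (adjusted p = 0.583), and passed per spike-in count at −1.01 ± 0.21 (edgeR adjusted p = 5.91e-06), where 67.6% of tRNAs were lower. Of 204 tRNAs tested, 71.1% passed between the wildtype tissues and 37.7% were lower in cerebellum. The sum of the family differed by −0.17 ± 0.14 (edgeR adjusted p = 0.267), and its sign turned with the scaling: 0.080 with library totals (adjusted p = 0.644) and −1.02 per spike-in count (adjusted p = 2.39e-06, where 68.1% of anticodons were lower).

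Between the mutant tissues all 3 initiators were lower in cerebellum, where 72.5% of the 204 tRNAs passed and 36.8% were lower. The log2 fold changes were −1.92 ± 0.23 for iMet-CAT-2-1, −1.30 ± 0.26 for iMet-CAT-3-1 and −0.65 ± 0.18 for iMet-CAT-1 (SE; edgeR adjusted p = 6.05e-08, 0.000106 and 0.00182). The median over all 204 tRNAs was −0.01. The family sum was lower by −0.57 ± 0.17 (edgeR adjusted p = 0.00269), as were 43.1% of anticodon sums, and with library totals in place of TMM it was −0.34 and did not pass (adjusted p = 0.0695). The call for iMet-CAT-1 was likewise lost with library totals, at −0.33 (edgeR adjusted p = 0.0831). A call for iMet-CAT-1 in mutants and none in wildtype does not show that the tissue difference depended on genotype; the test of that difference stands below.

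Elongator methionine tRNAs are the natural comparison, since they carry the same amino acid and anticodon. Of the 6 nuclear Met-CAT rows, 0 passed between the wildtype tissues by edgeR, where 71.1% of 204 tRNAs passed. Of those rows 1 had an unadjusted p under 0.05. Between the mutant tissues 4 were higher in cerebellum than in cerebrum, where 35.8% of tRNAs were higher. These calls turned with the scale. Per spike-in count 5 of the 6 were lower in wildtype cerebellum, where 67.6% of tRNAs were lower. On that scale 3 were lower and 1 higher in mutant cerebellum, where 69.1% of tRNAs were lower. Per elongator count, initiator counts were 0.474, 0.373, 0.303, 0.458 and 1.16 in the 5 mutant cerebellum libraries, and between 0.467 and 0.860 in wildtype cerebellum with a median of 0.568. In cerebrum the ratio was 1.26, 0.760, 0.929 and 0.824 in mutants, and between 0.644 and 1.01 in wildtype with a median of 0.821. Without mutant 5, every mutant cerebellum library would lie below every cerebrum library, and wildtype cerebellum overlaps both. These ratios of counts, which were not divided by length, are described with no test.

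**Figure D3:**
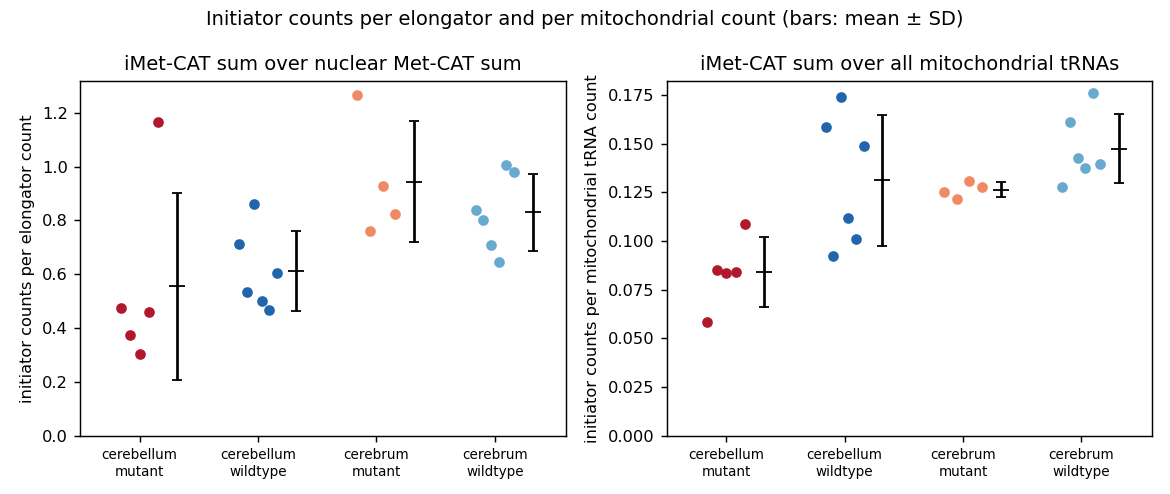
Left, summed iMet-CAT counts per nuclear Met-CAT count; right, summed iMet-CAT counts per mitochondrial tRNA count, both from 0, by tissue and genotype; points are libraries and bars are the mean ± SD. On the left mutant 5 of cerebellum stands at 1.16 above its group, and on the right 4 of 5 mutant cerebellum libraries lie below all wildtype cerebellum libraries.

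In cerebrum the mutation was compared with wildtype in 4 against 6 libraries, and no initiator row passed. On the TMM scale fitted within cerebrum, iMet-CAT-1 had 18729, 17147, 17888 and 18045 CPM in mutants, against 13850 to 18526 CPM (median 15649) in wildtype. Mutant 1 lies just above all wildtype libraries, and mutants 2, 3 and 4 lie in the upper part of the wildtype range. The log2 fold change, mutant over wildtype, was 0.17 ± 0.12 (SE; edgeR adjusted p = 0.318).

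iMet-CAT-2-1 had 114 CPM, 118 CPM, 113 CPM and 113 CPM in mutants, against 90.8 to 110 CPM (median 108) in wildtype. Its log2 fold change was 0.16 ± 0.13 (edgeR adjusted p = 0.431). iMet-CAT-3-1 had 299 CPM, 273 CPM, 291 CPM and 303 CPM in mutants, against 212 to 304 CPM (median 263) in wildtype, with a log2 fold change of 0.19 ± 0.13 (edgeR adjusted p = 0.326). The initiators thus held 0 of 3 calls, where 41 of 208 tRNAs, 19.7%, passed; none of the 3 had an unadjusted p under 0.05, and DESeq2 called none. The family sum differed by 0.091 ± 0.12 (edgeR adjusted p = 0.769), with TMM factors computed over anticodons.

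The direction of these small differences was set by the scale. Divided by the mitochondrial total, the same counts gave log2 fold changes of −0.22 for iMet-CAT-1, −0.23 for iMet-CAT-2-1 and −0.20 for iMet-CAT-3-1. Per count of the bacterial spike-in they gave −0.17, −0.18 and −0.13, and no initiator passed on either scale, where 53.4% of tRNAs passed on the mitochondrial scale and 35.6% per spike-in count. On the mitochondrial scale the median over all 208 tRNAs moved to −0.41, against −0.03 with TMM, so all 3 initiators lay above the median on each. The initiator sum was 3.20 ± 0.208 per Met-CAT-MT count in mutant and 3.87 ± 0.337 in wildtype cerebrum (SD, n = 4 and 6). Met-CAT-MT itself was higher in mutant cerebrum on the TMM scale, by 0.44 ± 0.12 (edgeR adjusted p = 0.0106).

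Among the elongators of cerebrum 3 of 6 rows passed, all lower in mutants, where 11.5% of tRNAs were called lower. Met-CAT-4-1 was lower in mutants by −1.75 ± 0.21, Met-CAT-6-1 by −0.78 ± 0.25 and Met-CAT-3-1 by −0.51 ± 0.16 (SE; edgeR adjusted p = 4.72e-06, 0.0296 and 0.0267), while Met-CAT-1 and Met-CAT-2, which hold most elongator counts, lay at 0.071 and 0.0097. The median log2 fold change was −0.41 over the 6 elongator rows and 0.17 over the 3 initiator rows. Summed to the anticodon, the elongators lay at −0.067 ± 0.14 and the initiators at 0.091 ± 0.12 (edgeR adjusted p = 0.898 and 0.769). No test of the difference between these lists was made.

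**Figure D4:**
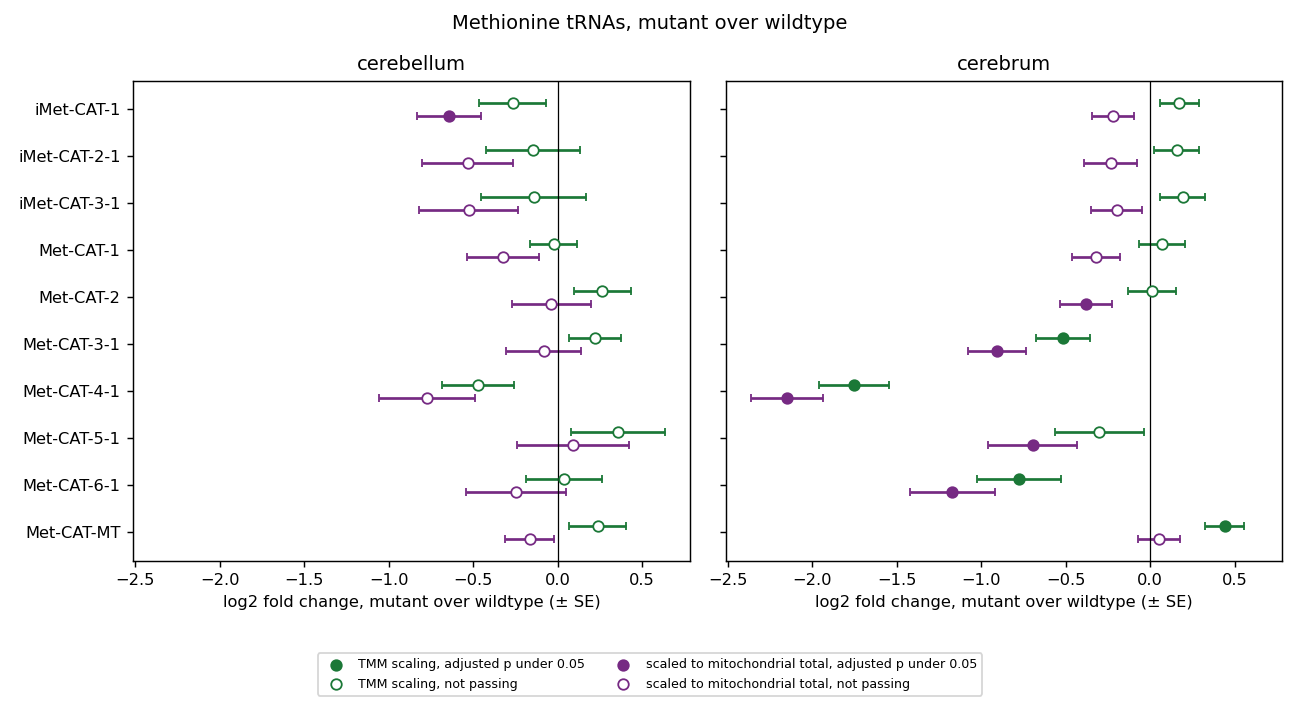
Log2 fold change of each methionine tRNA row, mutant over wildtype (± SE), in cerebellum and cerebrum, with TMM scaling and with scaling to the mitochondrial total; filled points passed at an adjusted p under 0.05. In cerebrum the initiators lie above 0 with TMM and below 0 on the mitochondrial scale, and in cerebellum iMet-CAT-1 passed at −0.64 on the mitochondrial scale.

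In cerebellum no initiator row passed with TMM scaling, and the values moved with single libraries. iMet-CAT-1 had 12766, 12370, 11337, 13377 and 21877 CPM in mutants 1 to 5, against 19561, 13158, 25432, 13699, 13305 and 18410 CPM in wildtype 1 to 6. Mutants 1, 2 and 3 lie below all wildtype libraries, mutant 4 lies within their lower part, and mutant 5 exceeds all but wildtype 3. The log2 fold change was −0.27 ± 0.20 (SE; edgeR adjusted p = 0.526). It was −0.45 without mutant 5 and −0.13 without wildtype 3, and passed in neither case (edgeR adjusted p = 0.0887 and 0.819).

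iMet-CAT-2-1 had 25.8 CPM, 30.5 CPM, 29.0 CPM, 34.7 CPM and 67.6 CPM in mutants, against 26.2 to 60.8 CPM (median 39.5) in wildtype, with a log2 fold change of −0.15 ± 0.28 (edgeR adjusted p = 0.899). iMet-CAT-3-1 had 101 CPM, 104 CPM, 125 CPM, 128 CPM and 279 CPM in mutants, against 86.8 to 287 CPM (median 155) in wildtype, with −0.14 ± 0.31 (edgeR adjusted p = 0.899). Both groups overlap over most of their range. Without mutant 5 the log2 fold changes were −0.45 and −0.49, and without wildtype 3 they were −0.019 and 0.086, none of which passed (lowest edgeR adjusted p = 0.202). Again 0 of 3 initiators passed, where 5 of 202 tRNAs, 2.48%, did; none of the 3 had an unadjusted p under 0.05, and DESeq2 called none of them.

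The family sum in cerebellum differed by −0.33 ± 0.18 (edgeR adjusted p = 0.242), where edgeR called 0 of 71 anticodons, 17 had an unadjusted p under 0.05 and DESeq2 called 3. It passed without mutant 5, at −0.50 ± 0.16 (edgeR adjusted p = 0.0433), and was −0.21 without wildtype 3 (edgeR adjusted p = 0.520). Mutant 5 had 20480 CPM for the sum, and the other 4 mutants 11513 to 13467 CPM. Scaled to the mitochondrial total with all 11 libraries, the sum was lower in mutants by −0.64 ± 0.19 (edgeR adjusted p = 0.0202), where 15.5% of anticodons passed, and iMet-CAT-1 by −0.64 ± 0.19 (edgeR adjusted p = 0.0235), the only initiator of 3 to pass where 26.2% of tRNAs passed. The median over all 202 tRNAs was −0.37 on that scale. The call for the sum was lost without mutant 1, wildtype 1, wildtype 3 or wildtype 6, with adjusted p-values of 0.0713, 0.0668, 0.0657 and 0.052.

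Per spike-in count the sum was 1.27, 1.16, 1.53, 1.43 and 3.10 in the 5 mutants, against 1.40 to 5.93 (median 2.82) in wildtype, and lower in mutants by −0.85 ± 0.25 on the log2 scale (edgeR adjusted p = 0.0319), where 22.5% of anticodons passed. Of the rows, iMet-CAT-1 passed on that scale, at −0.85 ± 0.27 (edgeR adjusted p = 0.0153), where 41.1% of tRNAs passed. The spread of that ratio within wildtype was wide, and the amount of spike-in added to each library is unknown here. Per Met-CAT-MT count the sum was 2.83 ± 0.496 in mutants and 3.91 ± 0.664 in wildtype (SD, n = 5 and 6).

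Depth class could not be separated from genotype in cerebellum. Among the shallow libraries, the family sum was 12337 CPM in mutant 1, against 13457 to 24992 CPM in 5 wildtype libraries, a difference in mean log2 CPM of −0.55. Among the deep libraries it was 11513 to 20480 CPM in 4 mutants, against 13584 CPM in wildtype 5, a difference of 0.059. For iMet-CAT-1 the same differences were −0.46 and 0.10, for iMet-CAT-2-1 −0.77 and 0.53, and for iMet-CAT-3-1 −0.74 and 0.76. All wildtype libraries with a high initiator level, 1, 3 and 6, were shallow, and the one deep wildtype library lay near the 4 lower mutants for iMet-CAT-1. Shallow wildtype 2 and 4 were also low for iMet-CAT-1, at 13158 and 13699 CPM, against 13305 CPM in deep wildtype 5. Deep mutant 5 was high, at 21877 CPM. No within-class comparison has replicates in both genotypes, so neither class was tested alone. In a fit of all 11 cerebellum libraries with depth class as a covariate, the family sum differed by −0.25 ± 0.26 (SE). That fit rests on 1 mutant library among the shallow ones and 1 wildtype library among the deep ones.

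**Figure D5:**
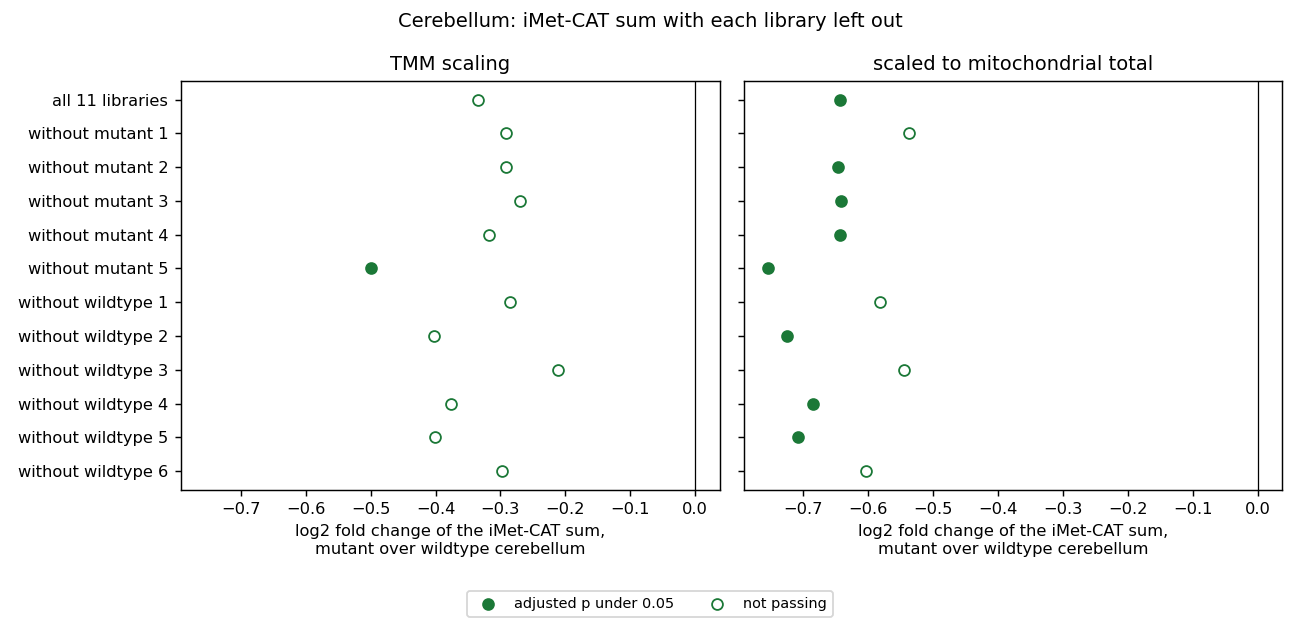
Log2 fold change of the summed iMet-CAT counts, mutant over wildtype cerebellum, with all 11 libraries and with each left out, under TMM scaling and scaling to the mitochondrial total; filled points passed at an adjusted p under 0.05. All values lie below 0, between −0.50 and −0.21 with TMM and between −0.75 and −0.54 on the mitochondrial scale, and the calls depend on which library is left out.

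The difference between the genotype effects, cerebellum minus cerebrum, was tested over all 21 libraries. It was −0.45 ± 0.23 for iMet-CAT-1, −0.32 ± 0.31 for iMet-CAT-2-1 and −0.35 ± 0.35 for iMet-CAT-3-1 (SE; edgeR adjusted p = 0.343, 0.696 and 0.701), and −0.40 ± 0.22 for the sum (edgeR adjusted p = 0.592). Without pairing, none of the 3 passed or had an unadjusted p under 0.05, and DESeq2 called none, where 10 of 204 tRNAs, 4.90%, passed. With same-numbered libraries of a genotype taken as pairs, the difference for iMet-CAT-1 passed, with its value given under the processing alternatives. Whether they are pairs could not be decided, and the values that follow take them as unpaired. Without cerebellum mutant 5 the difference for iMet-CAT-1 was −0.64 ± 0.21 and passed (edgeR adjusted p = 0.0419). With any other single library left out it did not pass, and it was −0.33 without cerebellum wildtype 3 (edgeR adjusted p = 0.553). For iMet-CAT-2-1 the difference was −0.63 without cerebellum mutant 5 and −0.20 without cerebellum wildtype 3, and for iMet-CAT-3-1 −0.69 and −0.13, none of which passed (lowest edgeR adjusted p = 0.120).

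The authors' deposited tables gave lower initiator levels in mutants of both tissues. For cerebellum, the authors' deposited table lists iMet-CAT-1 at a log2 fold change of −0.61 (adjusted p = 0.0143), iMet-CAT-2-1 at −0.51 (adjusted p = 0.133) and iMet-CAT-3-1 at −0.51 (adjusted p = 0.162). For cerebrum, the authors' deposited table of isodecoders runs wildtype over mutant; turned round, it lists iMet-CAT-1 at −0.23 (adjusted p = 0.0433), iMet-CAT-2-1 at −0.25 (adjusted p = 0.037) and iMet-CAT-3-1 at −0.21 (adjusted p = 0.11). The authors' deposited anticodon tables list the sum at −0.61 for cerebellum (adjusted p = 0.00897) and −0.23 for cerebrum (adjusted p = 0.0523). In the authors' deposited isodecoder tables the median mitochondrial tRNA lies at 0.0041 in cerebellum and 0.022 in cerebrum, and the median nuclear tRNA at −0.35 in cerebellum and −0.48 in cerebrum. Of the rows in the authors' deposited isodecoder tables, 24.5% were called lower in cerebellum and 57.4% in cerebrum. The initiators of cerebrum thus lie above the nuclear median of the authors' deposited table and those of cerebellum below it.

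The 3 initiator rows varied together across libraries. Across 21 libraries the correlation of log2 CPM was 0.92 between iMet-CAT-1 and iMet-CAT-3-1, 0.95 between iMet-CAT-2-1 and iMet-CAT-3-1 and 0.80 between iMet-CAT-1 and iMet-CAT-2-1. Within cerebellum (11 libraries) these were 0.93, 0.89 and 0.86, and within cerebrum (10 libraries) 0.97, 0.95 and 0.91. Outside the family, the row most like iMet-CAT-1 was SeC-TCA-1-1, the selenocysteine tRNA, at 0.87 over 21 libraries, 0.89 within cerebellum and 0.79 within cerebrum. Next came Lys-CTT-2, a lysine tRNA, at 0.80, 0.82 and 0.57, and Leu2-TAG-MT, a mitochondrial leucine tRNA, at 0.77, 0.58 and 0.87. SeC-TCA-1-1 was also the row most like iMet-CAT-3-1, at 0.92, 0.80 and 0.80. The row most like iMet-CAT-2-1 was Arg-CCT-4-1, an arginine tRNA, at 0.92 over 21 libraries, but at 0.79 within cerebellum and 0.31 within cerebrum. These correlations are over libraries that share tissue, genotype and scaling, and are given as descriptions.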

How the data were processed

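QuantM-tRNA-seq, a tRNA library method, was applied to total RNA. The submitters' processing notes name mm10 as the build and list DESeq2, featureCounts, Bowtie2 and cutadapt as tools, without versions. The authors deposited raw read counts per tRNA, 1 table for each tissue. Result tables deposited by the authors hold, per the file headers, a log2 fold change with its p-value and adjusted p-value, a test statistic (a score) and a mean signal (counts divided by size factors). By its correlation with the counts, the authors' deposited cerebrum isodecoder table runs wildtype over mutant.

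The spike-in row was left out of library sizes and tests. Counts were tested here with edgeR 4.0.16 in R 4.3.3 (TMM, filterByExpr with a minimum count of 10, robust quasi-likelihood F tests, Benjamini-Hochberg adjustment over all tRNAs, threshold 0.05), each tissue alone for genotype and all 21 libraries and 204 shared tRNAs jointly for tissue and for the difference. The family sum was tested in the same way among anticodon sums, which have TMM factors of their own. For shares within the family the exact two-sided permutation test was used, adjusted over 12 comparisons. Counting error is small beside the spread between libraries for iMet-CAT-1. This does not hold throughout for the scarce rows. iMet-CAT-2-1 had 53 to 454 counts in cerebellum and 375 to 781 in cerebrum. In mutant cerebrum its CPM had an SD of only 2.51 around a mean of 115. No replicate pair agreed within sampling noise (lowest chi-square per degree of freedom 44.07 over 46 pairs). The fits were also run on simulated counts with known changes. How many of those changes were recovered is not given here. Correlated rows were the 3 with the highest correlation to each member over all libraries.

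Alternatives were other size factors, library totals, mitochondrial or spike-in scaling, DESeq2 1.42.0, other filters, covariates for sex or depth class, fitting genotype jointly, leaving out mitochondrial rows, a replicate block and leaving out each library. The members, lists and tests were chosen with earlier results of these data known. The fit of the sum with the isodecoder table's TMM factors and the leave-one-out on the mitochondrial scale were chosen after seeing the data. Nuclear tRNA gene positions were not used here.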

Additional observations from a re-analysis of the deposited data

Results flagged for a closer look

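Cerebellum mutant 5 stood apart from the other 4 mutant cerebellum libraries in 6 measures of the initiators. No other mark arose among 36 checks, each of a measure within a group of libraries. By chance about 1 in 20 checks is marked. Mutant 5 had 21877 CPM of iMet-CAT-1 (11337 to 13377 in the others), 67.6 CPM of iMet-CAT-2-1 (25.8 to 34.7) and 279 CPM of iMet-CAT-3-1 (101 to 128). Its family sum was 20480 CPM (11513 to 13467), its ratio of initiator to elongator counts 1.16 (0.303 to 0.474) and its initiator sum 3.10 per spike-in count (1.16 to 1.53). These measures share the same initiator counts and are not independent of each other. Mutant 5 was the deepest cerebellum library, with 7110313 counts. The part of depth in its values was not tested. Its shares of iMet-CAT-2-1 and iMet-CAT-3-1 in the family, 0.304% and 1.26%, were the highest of the mutant cerebellum libraries but were not marked.

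For the elongator Met-CAT-4-1 the genotype effect differed between tissues, by 1.28 ± 0.32 on the log2 scale, cerebellum minus cerebrum (SE, edgeR adjusted p = 0.0133). In that fit, without pairing, the difference passed for no initiator row.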

How the results depend on the processing

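Of 727 fold changes and share differences computed under alternatives, 659 kept their direction and their side of the threshold. Most of the 727 came from leaving out a single library, and many of the results had not passed to begin with. For those, keeping their side means only that they again did not pass. The scale moved the initiators most; the cause was not tested. In cerebrum the genotype values turned below 0 on the mitochondrial scale (−0.22 for the sum, −0.22 for iMet-CAT-1, −0.23 for iMet-CAT-2-1, −0.20 for iMet-CAT-3-1) and per spike-in count (−0.17, and −0.17, −0.18 and −0.13). In cerebellum the sum passed on both scales (−0.64 and −0.85), and iMet-CAT-3-1 lay at 0.030 with depth class as a covariate. Between wildtype tissues the sum was 0.080 with library totals and −1.02 per spike-in count, and iMet-CAT-1 was 0.095 with library totals; between mutant tissues the sum was −0.34 with library totals. With the isodecoder table's TMM factors, an alternative chosen after seeing the data, the sum in cerebrum was 0.17, against 0.091.

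The count of tRNAs called in cerebrum, 41, became 111 on the mitochondrial scale, 27 with nuclear tRNAs only, 65 with the replicate block and 74 per spike-in count. In cerebellum 5 became 23 with DESeq2, 16 in the joint fit, 9 with library totals or no filter, 8 with a mean count of at least 50, 53 on the mitochondrial scale, 3 with sex as a covariate, 83 per spike-in count and 0 with depth class as a covariate. For the difference between tissues 10 became 17 with DESeq2, 28 with the replicate block and 0 per spike-in count.

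Leaving out each library gave 34 to 51 calls in cerebrum, 2 to 33 in cerebellum and 7 to 21 for the difference, the highest of the last 2 without cerebellum mutant 5. The cerebellum sum ranged from −0.50 to −0.21 with TMM and from −0.75 to −0.54 on the mitochondrial scale, and iMet-CAT-3-1 in cerebellum from −0.49 to 0.086, above 0 without wildtype 3. Genotype differences of shares crossed 0: from −0.00466 to 0.0234 points for iMet-CAT-2-1 in cerebellum, and in cerebrum from −0.0239 to 0.00583 for iMet-CAT-2-1, −0.0533 to 0.0148 for iMet-CAT-1 and −0.00208 to 0.0475 for iMet-CAT-3-1. The mutant tissue differences of shares ranged from 0.919 to 1.06 points for iMet-CAT-1, −0.387 to −0.358 for iMet-CAT-2-1 and −0.675 to −0.558 for iMet-CAT-3-1; with 1 library fewer their adjusted p could not pass (0.0571 to 0.0714).

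Whether replicate numbers pair the libraries could not be decided, and the main fits took them as unpaired. Same-numbered libraries deviated together (correlation over 0.1) in 2 of 5 cerebellum and 2 of 4 cerebrum genotype pairs. Between tissues they did so in 1 of 4 mutant and 4 of 6 wildtype pairs. Same-numbered libraries of a genotype shared their labelled sex in 10 of 10 tissue pairs, and correlated best with their own number in 1 of 4 mutant and 4 of 6 wildtype pairs. With the replicate block the difference for iMet-CAT-1 was −0.62 and passed (edgeR adjusted p = 0.0342). Blocked share differences between tissues were 1.04, −0.390 and −0.654 points in wildtype and 1.06, −0.387 and −0.675 in mutants, for the 3 rows in numerical order, with adjusted p = 0.0625 and 0.25 by exact sign-flip permutation, which so few pairs cannot pass; the blocked genotype difference of iMet-CAT-2-1 in cerebellum was −0.000562. Counts of 53 to 183 for iMet-CAT-2-1 in most cerebellum libraries limit the precision of its share.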
